A study of Mus musculus with 16 samples.

Results

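The heat shock chaperones examined here are 10 genes, Hsph1, Hspa8, Hspa1a, Hspa1b, Dnajb1, Dnaja1, Hsp90aa1, Hspd1, Hspe1 and Hspb1, chosen by symbol out of 17864 genes listed in at least 1 of the 2 deposited tables of mouse islet RNA sequencing. All 10 were present in both tables and all 10 passed the minimum level for testing. The set was drawn up with results of these data in view, so the cKO against Flox values of its members are given as a description without a test.

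The series comprises 16 islet libraries in 4 groups of 4, all on a C57BL/6J background. Flox mice carry loxP sites on either side of exon 2 of Vtcn1, the gene of the immune checkpoint molecule B7-H4, and cKO mice carry the same floxed alleles plus Cre recombinase driven by the rat insulin II promoter (Rip-Cre). These 8 libraries came from mice on normal chow, their age at islet collection is not given in the sources used here, and the Flox controls carry no Cre. The other 8 came from mice that were 6 weeks old at the start of 8 weeks of high-fat diet and then received adeno-associated virus by infusion into the pancreatic duct, with islets taken 5 weeks later: H-ins2-C mice were given a control virus, and H-ins2-O mice a virus with B7-H4 and ZSGreen under a rat insulin promoter. The series text calls the infused animals wild type, whereas the methods of the study call them Flox mice. Insulin promoters of this kind can also be active in the hypothalamus, and islets were freed with collagenase at 37 °C and picked by hand, so each library is a mixture of cells.

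Molecular chaperones bind unfolded stretches of other proteins and help them fold. Hsp70 proteins (Hspa8 in unstressed cells, Hspa1a and Hspa1b on stress) act with J-domain partners that deliver substrates and with Hsp110 proteins such as Hsph1 that exchange their nucleotide, Hsp90 proteins take over partly folded clients, Hspd1 and Hspe1 form the folding cage of mitochondria, and small heat shock proteins such as Hspb1 hold unfolded proteins without using ATP. When unfolded proteins accumulate, heat shock factor 1 (Hsf1) trimerises and binds heat shock elements, inverted repeats of GAA units, in the promoters of many of these genes. Islet β cells make large amounts of secretory protein, and chaperones of the endoplasmic reticulum, a separate set, carry much of that load.

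RefSeq promoter windows of 250 bases before to 50 after each start (assembly GRCm38.p6, the sequence that mm10 also carries) were held for 8 of the 10 genes, and stretches around the heat shock element letters are shown because 7 of the 10 members hold these letters. Capitals mark each match to GAANNTTC or TTCNNGAA, both of which read the same on the opposite strand, and each sequence runs 5′ to 3′ on the strand of its gene. The first sequence lies at chr1:55088053-55088082 on the minus strand, the second is the same interval on the plus strand, and the others lie at chr17:34972247-34972266 (minus), chr17:34959329-34959348 (minus), chr5:135887801-135887830 (plus), chr4:40722338-40722357 (plus) and chr5:149636356-149636375 (minus).
Hspd1: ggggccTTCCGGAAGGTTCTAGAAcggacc
Hspe1: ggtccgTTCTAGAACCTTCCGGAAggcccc
Hspa1a: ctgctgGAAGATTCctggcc
Hspa1b: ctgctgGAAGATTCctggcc
Hspb1: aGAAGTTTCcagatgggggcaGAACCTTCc
Dnaja1: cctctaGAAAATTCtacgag
Hsph1: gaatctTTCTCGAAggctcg

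Hspd1 and Hspe1 stand head to head on chromosome 1 and share 1 stretch of overlapping elements, which is 66 to 95 bases before the start of Hspe1 and which an annotated alternative first exon of Hspd1 also covers. Annotated exons overlap 2 other printed stretches as well, that of Dnaja1 (exons of Dnaja1 and Gm6297) and that of Hsph1 (an exon of Hsph1). GAANNTTC occurred in at least 1 window of 7 of the 8 genes, against 9.04% of all 27025 genes with a window. A longer form of 3 alternating units, in which either motif goes on after NN with the next inverted unit and which overlaps the shorter motifs by construction, occurred in 3 of the 8, Hsph1, Hspd1 and Hspe1, against 0.662% of all genes, and in Hsph1 it lay downstream of the start. Dnajb1 had no match to any of these letters in its windows. The 250 bases before Hspa1a (chr17:34969359-34972156) and Hspa1b (chr17:34956429-34959238), neighbouring genes 10120 bases apart, were identical at 247 positions (98.8%). Because their transcripts are also nearly identical, and because Hspa8, Hspd1 and Hspe1 have processed pseudogenes, reads may have been divided between copies by the authors' counting, and the Hspa1a and Hspa1b levels are best read together.

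The values are FPKM (fragments per kilobase of transcript, scaled to the mapped reads), which correct for gene length and so allow levels of different genes to be compared. The 2 tables share no library, and the sources used here do not say whether they were put on a common scale, so tests were made only within a table. Between 14822 and 15984 genes were above 0 per library, and relative depth estimated from the steps between low values ran from 0.942 to 1.07 of the table median in the chow libraries and from 0.840 to 1.08 in the virus libraries. Vtcn1 lay between 0.0188 and 0.371 FPKM in the Flox, cKO and H-ins2-C libraries and between 40.01 and 128 FPKM in H-ins2-O, so the labels of the virus groups were borne out. At such low levels Flox (0.0188 to 0.216) and cKO (0.0202 to 0.125) could not be told apart on this gene. The study itself reported less B7-H4 mRNA by quantitative PCR and less protein by Western blot in cKO islets. Genes that mark β cells, the insulin-producing cells, took 35.4 to 54.7% of summed FPKM in Flox, 25.8 to 32.8% in cKO, 46.99 to 51.1% in H-ins2-O and 4.38 to 55.1% in H-ins2-C. Markers of α cells took 1.24 to 2.37% in Flox and 0.780 to 1.20% in cKO, so these shares also differed without overlap between the genotypes. Genes of acinar cells, the enzyme-producing exocrine cells around islets, took 7.69 to 36.8% of summed FPKM in Flox and 37.6 to 47.6% in cKO, without overlap. They took 5.71%, 59.6%, 77.8% and 2.25% in H-ins2-C1, C2, C3 and C5, but only 11.5 to 15.0% in the 4 H-ins2-O libraries. H-ins2-C2 and H-ins2-C3 therefore stand apart from the rest of their table, and H-ins2-C5 also stood out in α-cell markers (13.6%, against 0.110 to 4.35% in the other virus libraries). In bulk RNA, fewer cells of a type and less RNA per cell cannot be told apart.

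Among the chow mice, all 10 members had a lower mean in cKO than in Flox islets, with separate groups for 5 of them and overlapping groups for the other 5. Of all genes tested, 86.9% were likewise lower in cKO and 15.4% lower without overlap. Hspa8, Hsph1, Dnaja1, Hsp90aa1 and Hspd1 were lower in each of the 4 cKO libraries than in any of the 4 Flox libraries, by log2 fold changes of -0.88 to -1.44. Hspa1a, Hspa1b, Dnajb1, Hspb1 and Hspe1 also had lower means in cKO, but at least 1 library crossed over.

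**Figure D1:**
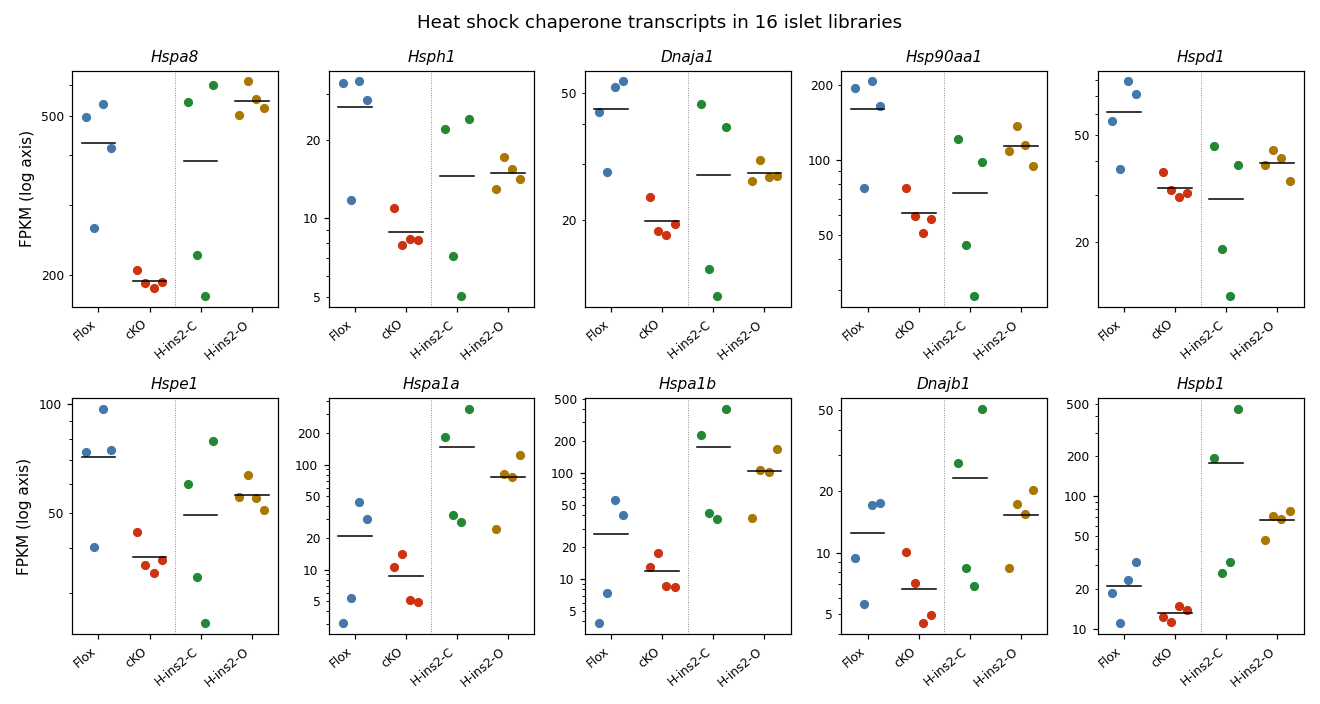
FPKM of the 10 heat shock chaperones on a log axis in the 16 islet libraries. Each point is a library, the horizontal line is the group mean (n = 4), libraries stand in the order of their labels, and the dotted line separates the 2 deposited tables. The cKO points of Hspa8, Hsph1, Dnaja1, Hsp90aa1 and Hspd1 lie below all Flox points, whereas Hspa1a and Hspa1b spread over more than 10-fold within Flox and within H-ins2-C.

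Hspa8 (chr9:40801276-40805202), the constitutive cytosolic Hsp70, was the most abundant member in all 16 libraries. It measured 496, 262, 535 and 417 FPKM in flox16, flox17, flox20 and flox21, and 205, 191, 185 and 192 FPKM in CKO8, CKO9, CKO12 and CKO38. The highest cKO library thus lay below the lowest Flox library, and the cKO libraries lay within 1.11-fold of each other while the Flox libraries spread 2.04-fold. The means were 428 ± 121 FPKM in Flox and 193 ± 8.60 FPKM in cKO (SD, n = 4 each), a log2 fold change of -1.09 with an SE of 0.18.

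Hsph1 (chr5:149616843-149636498), the Hsp110 nucleotide exchange factor of Hsp70, had the largest difference of the set. Its levels were 32.9, 11.7, 33.4 and 28.4 FPKM in flox16, flox17, flox20 and flox21, and 10.97, 7.91, 8.31 and 8.25 FPKM in CKO8, CKO9, CKO12 and CKO38. The separation between the groups was narrow, since flox17 and CKO8 almost met. The log2 fold change was -1.44 (SE 0.29), and 34 of the 11804 genes tested had a lower one. That place is a description only, because the set was drawn up with results of these data in view.

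The inducible Hsp70 pair behaved differently. Hspa1a measured 3.07, 5.39, 44.0 and 30.4 FPKM in flox16, flox17, flox20 and flox21, and 10.6, 14.1, 5.10 and 4.94 FPKM in CKO8, CKO9, CKO12 and CKO38. Hspa1b measured 3.84, 7.46, 55.7 and 40.3 FPKM in the same Flox libraries, and 12.9, 17.7, 8.68 and 8.41 FPKM in the cKO libraries. All 4 cKO libraries fell inside the Flox range for both genes. The Flox libraries differed 14.3-fold for Hspa1a and 14.5-fold for Hspa1b, and the log2 fold changes of -0.64 (SE 0.94) and -0.50 (SE 0.91) were smaller than their errors.

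Of the J-domain partners, Dnaja1 (chr4:40722468-40734965) followed Hspa8. It measured 43.5, 28.2, 52.4 and 54.4 FPKM in flox16, flox17, flox20 and flox21, and 23.6, 18.4, 17.9 and 19.4 FPKM in CKO8, CKO9, CKO12 and CKO38. The groups did not overlap, and the log2 fold change was -1.11 (SE 0.20). Dnajb1 (chr8:83608175-83612653), the Hsp40 that pairs with inducible Hsp70, measured 9.42, 5.61, 17.2 and 17.6 FPKM in the Flox libraries and 10.1, 7.10, 4.49 and 4.91 FPKM in the cKO libraries. CKO8 exceeded flox16 and flox17, and CKO9 exceeded flox17, so the groups overlapped, and the log2 fold change was -0.79 (SE 0.39).

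Hsp90aa1 (chr12:110691036-110696395) encodes Hsp90α, the stress-responsive cytosolic Hsp90. It measured 195, 77.4, 206 and 164 FPKM in flox16, flox17, flox20 and flox21, and 77.0, 59.5, 50.9 and 58.0 FPKM in CKO8, CKO9, CKO12 and CKO38. The groups parted by a margin of less than 1 FPKM, between flox17 and CKO8, and the log2 fold change was -1.30 (SE 0.30).

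The mitochondrial pair went together. Hspd1 (chr1:55077833-55088243), which encodes Hsp60, measured 56.6, 37.3, 79.0 and 71.3 FPKM in flox16, flox17, flox20 and flox21, and 36.5, 31.2, 29.4 and 30.4 FPKM in the cKO libraries. Hspe1 (chr1:55088148-55091317), which encodes the lid protein Hsp10, measured 73.7, 40.2, 97.0 and 74.7 FPKM in the Flox libraries and 44.2, 35.9, 34.0 and 37.1 FPKM in the cKO libraries. The groups were separate for Hspd1 and crossed at CKO8 and flox17 for Hspe1, with log2 fold changes of -0.88 (SE 0.20) and -0.85 (SE 0.22).

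Hspb1 (chr5:135887919-135889563), the small heat shock protein Hsp27 (Hsp25 in mice), had levels of 18.6, 10.96, 23.4 and 31.6 FPKM in flox16, flox17, flox20 and flox21, and 12.2, 11.2, 14.9 and 13.8 FPKM in CKO8, CKO9, CKO12 and CKO38. Only flox17 brought the groups into overlap, lying below all cKO libraries, and the log2 fold change was -0.59 (SE 0.25).

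Most transcripts were lower in cKO, so these differences have to be read against the whole table. Over all 11804 genes tested, 86.9% had a log2 fold change below 0 and the median was -0.34. The median of the 10 chaperones was -0.86, or -0.52 relative to all genes. Groups without overlap, lower in cKO, were found for 5 of the 10 chaperones and for 15.4% of all genes, and higher in cKO for 0 of the 10 and for 1.32%. When each library was divided by its median-of-ratios factor, which brings the median of all genes close to 0, the same 5 chaperones stayed below without overlap, against 7.66% of all genes, and the median of the 10 was -0.48. In limma on log2(FPKM + 0.5), 155 genes (1.31%) passed, of which 115 (0.974%) fell and 40 (0.339%) rose, at a Benjamini-Hochberg adjusted p under 0.05 and a log2 fold change beyond 1, and after median-of-ratios scaling 10 fell and 26 rose.

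flox17, the Flox library with most acinar RNA (36.8%), was the lowest Flox library for 8 of the 10 chaperones, the exceptions being Hspa1a and Hspa1b. Acinar share and genotype cannot be told apart in this comparison, because the shares of the groups do not overlap, and the same holds for the β-cell and α-cell shares. With that share as a covariate 0 genes of the table passed at an adjusted p under 0.05, the median of the 10 was -0.15, and the log2 fold changes were -0.61 (SE 0.37) for Hsph1, -0.63 (SE 0.26) for Hspa8, -0.55 (SE 0.37) for Hsp90aa1 and -0.44 (SE 0.16) for Dnaja1, while those of Hspa1a, Hspa1b, Dnajb1 and Hspb1 changed sign to 1.81 (SE 0.86), 1.89 (SE 0.83), 0.48 (SE 0.28) and 0.29 (SE 0.24).

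Ratios of genes within a library do not depend on how libraries are scaled. Hsp90aa1 over Hsp90ab1, the inducible over the constitutive cytosolic Hsp90, was 0.444, 0.294, 0.392 and 0.353 in flox16, flox17, flox20 and flox21, and 0.276, 0.242, 0.222 and 0.261 in CKO8, CKO9, CKO12 and CKO38. Hsph1 over Hspa4, its constitutive Hsp110 relative, was 0.988, 0.605, 0.856 and 0.727 in the Flox libraries and 0.482, 0.471, 0.438 and 0.463 in the cKO libraries. Both ratios were lower in all cKO than in all Flox libraries, so Hsph1 and Hsp90aa1 differed by more than their own relatives. Such a separation was not particular to inducible forms. Hspa8 over Hsp90ab1, both constitutive, was 0.899 to 1.13 in Flox and 0.737 to 0.865 in cKO. The ratio of Hspa1a plus Hspa1b to Hspa8 gave no such separation, at 0.0139, 0.0490, 0.186 and 0.169 in the Flox libraries and 0.114, 0.167, 0.0745 and 0.0694 in the cKO libraries. Dnajb1 over Dnaja1 and Hspb1 over Hspa8 had higher means in cKO, with overlapping groups. Their means were 0.267 and 0.0497 in Flox and 0.329 and 0.0676 in cKO. In the virus libraries Hsp90aa1 over Hsp90ab1 was 0.210 to 0.287 in H-ins2-C and 0.199 to 0.248 in H-ins2-O. All of these ratios were chosen with the values known and carry no test. The part of the cell mixture, which differed between Flox and cKO, was not tested.

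**Figure D2:**
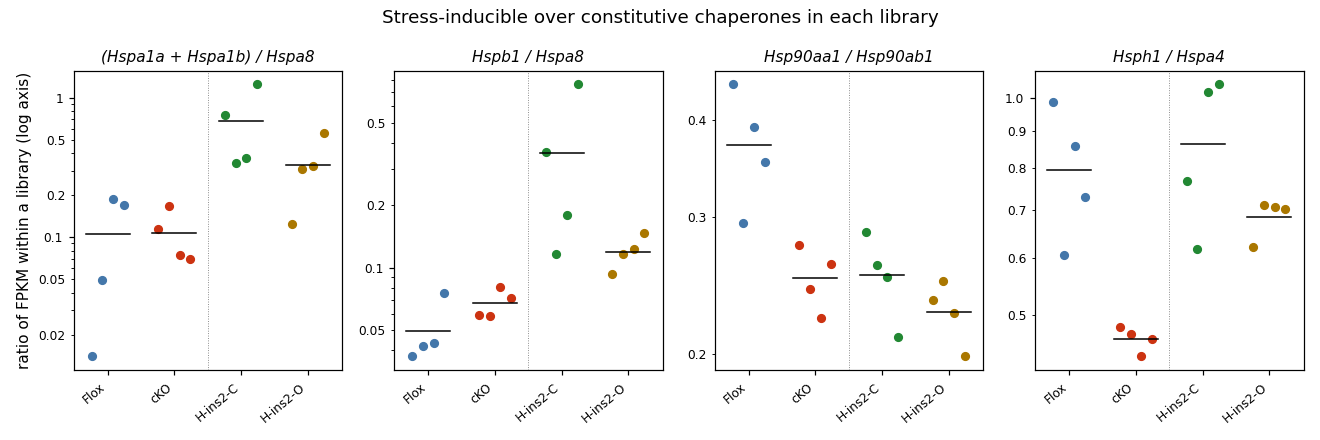
Ratios of FPKM within each library on log axes, for inducible Hsp70 (Hspa1a plus Hspa1b) over Hspa8, Hspb1 over Hspa8, Hsp90aa1 over Hsp90ab1 and Hsph1 over Hspa4. Points are libraries and lines are group means (n = 4). Hsp90aa1 over Hsp90ab1 was 0.294 to 0.444 in Flox and 0.222 to 0.276 in cKO, and the Hspa1a plus Hspa1b ratio ran from 0.0139 in flox16 to 1.24 in H-ins2-C5.

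Genes of the same pathway outside the set were tested in the same fit. Their lists were also drawn up with earlier results of these data known, so the counts are not independent of the choice of the set. Of 73 tested genes of Hsf factors, other Hsp70 and J-domain proteins, Hsp90 co-chaperones, BAG proteins, small heat shock proteins, the cytosolic chaperonin, mitochondrial chaperones and other Hsf1 targets, 29 fell and 1 rose at an adjusted p under 0.05, against 12.8% of all genes falling and 1.02% rising. Their median log2 fold change was -0.52, against -0.34 for all genes. After median-of-ratios scaling 8 of the 73 fell and 0 rose, against 147 falling and 133 rising of all 11782 genes, and with the acinar share as a covariate 0 passed. These counts rested on single libraries: leaving one out gave 1 falling pathway gene without CKO9, 4 without CKO38, 6 without flox20 or flox21, 12 without CKO12 and 61 without flox17, with 19, 89, 137, 142, 365 and 7092 genes of the whole table passing. Without flox16 2857 genes of the whole table passed and without CKO8 1626 did, against 1631 with all libraries.

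Among Hsp90ab1 and 12 Hsp90 co-chaperones, 13 genes tested, 8 fell, against 12.8% of all genes. Of the 8, 3 also passed the fold minimum, against 0.974% of all genes. Stip1, which joins Hsp70 to Hsp90, had means of 45.3 ± 13.8 FPKM in Flox and 16.3 ± 2.56 FPKM in cKO (log2 fold change -1.40, limma adjusted p = 0.00744). Chordc1, an Hsp90-binding zinc protein, fell with a log2 fold change of -1.12 (limma adjusted p = 0.0141), and Fkbp4, the Hsp90 partner of steroid receptors, with one of -1.09 (limma adjusted p = 0.0141). Hsp90ab1 itself fell from 423 ± 113 to 244 ± 25.3 FPKM (SD, n = 4), a log2 fold change of -0.75 with a limma adjusted p of 0.0253. The 13 had a median of -0.75.

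The cytosolic chaperonin TRiC/CCT, which folds actin and tubulin, has 8 subunits. In FPKM as deposited all 8 lay lower in every cKO than in every Flox library, against 15.4% of all genes. After median-of-ratios scaling this no longer held for every subunit, since the groups overlapped for Cct2, Cct4 and Cct5. In the unscaled fit 7 fell at an adjusted p under 0.05, against 12.8% of all genes. The largest differences were those of Cct3, at -0.95 (limma adjusted p = 0.0162), Cct6a, at -0.80 (limma adjusted p = 0.0162), and Cct8, at -0.66 (limma adjusted p = 0.0274). Of 6 other Hsp70 and Hsp110 genes 4 fell, led by Hspa4l with a log2 fold change of -1.20 (limma adjusted p = 0.0221) and including Hspa12a at -0.78 (limma adjusted p = 0.0326). Of 11 other J-domain genes 4 fell, led by Dnajb2 at -0.83 (limma adjusted p = 0.0431).

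The counts that follow are from the same unscaled fit, in which 12.8% of all genes fell at an adjusted p under 0.05. Of 9 other mitochondrial chaperones and proteases 2 fell, Hspa9, the mitochondrial Hsp70, at -0.74 (limma adjusted p = 0.0205), and Grpel1, its nucleotide exchange factor, at -0.58 (limma adjusted p = 0.0451). Among 9 Hsp70 co-factors and BAG proteins, St13 and Hspbp1 fell. Of 9 other Hsf1 targets 2 fell, Serpinh1, the collagen chaperone, at -0.97 (limma adjusted p = 0.0151) and Cacybp at -0.95 (limma adjusted p = 0.0151). Cryab, αB-crystallin, a small heat shock protein like Hspb1, rose from 2.57 ± 1.23 to 4.62 ± 0.67 FPKM (log2 fold change 0.81, limma adjusted p = 0.0362). Of 17 alternative fits, Grpel1 lost the threshold in 11, Hspbp1 and Cryab in 10 each and St13 in 8. Hspa9 lost it in 6, Serpinh1 in 5 and Cacybp in 3. Hsf1, the transcription factor, had a log2 fold change of -0.78 and missed the threshold at a limma adjusted p of 0.0534.

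The chaperones of the endoplasmic reticulum differed less. Their 16 genes had a median of -0.42, close to the -0.34 of all genes. At an adjusted p under 0.05, 4 fell (Hsp90b1, Pdia3, Canx and Herpud1), against 12.8% of all genes. Hspa5, the reticulum's Hsp70, had a log2 fold change of -0.54 and a limma adjusted p of 0.0501. After median-of-ratios scaling the 16 had a median of -0.04 and 0 passed. Cirbp and Rbm3, RNA-binding proteins induced by cooling, were at 0.02 (limma adjusted p = 0.959) and 0.42 (limma adjusted p = 0.124). The immediate early genes, which respond within minutes to stimulation, had a median of -0.23 over 17 tested. In limma 0 passed in either direction (13.8% of all genes), with 3 at an unadjusted p under 0.05 (41.5% of all genes). The 15 circadian genes tested had a median of 0.06, with 9 above 0. Against 12.8% of all genes, 4 of the 15 fell, among them Nfil3 at -2.16 (limma adjusted p = 0.0441) and Cry2 at -1.44 (limma adjusted p = 0.0476). Dbp, named after its values were seen, was higher in all cKO than in all Flox libraries, with a log2 fold change of 2.00 (limma adjusted p = 0.0771). The margin was narrow, with flox17 at 19.2 and CKO8 at 19.3 FPKM, while flox16, flox20 and flox21 were at 2.23, 4.61 and 2.32 FPKM.

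**Figure D3:**
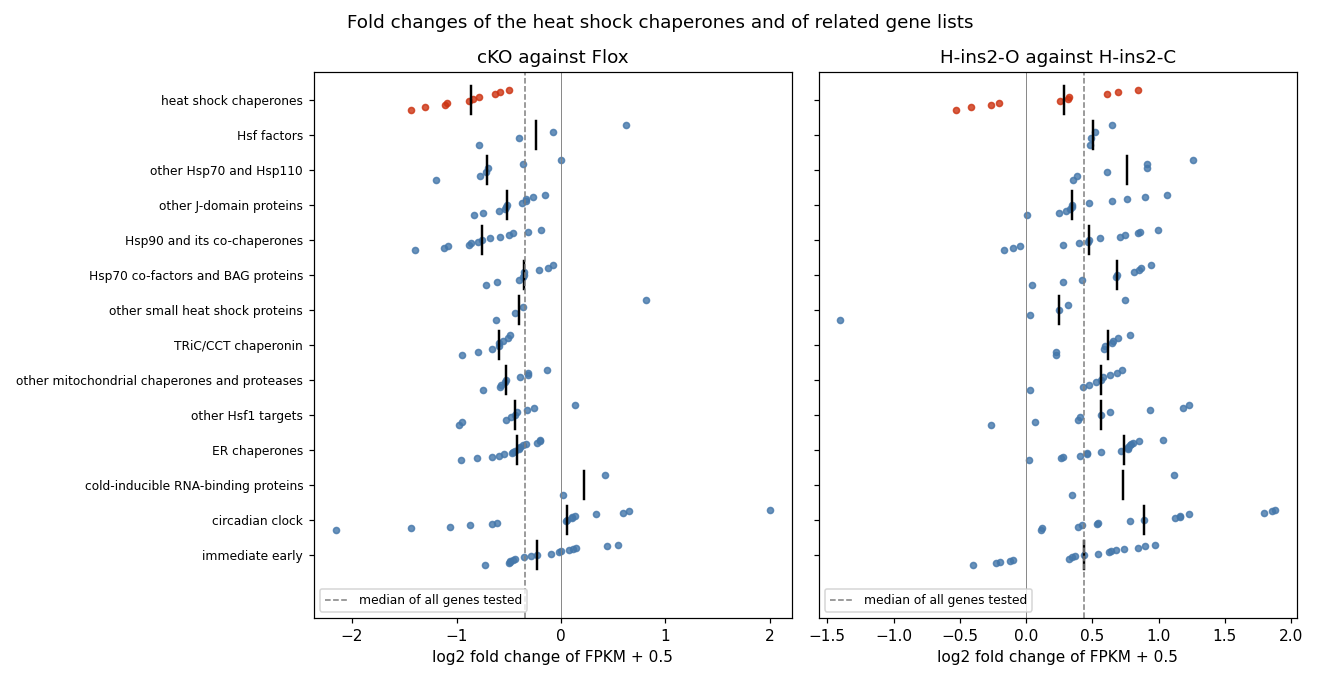
Log2 fold changes of FPKM + 0.5 from limma for the 10 heat shock chaperones (red) and the genes of related lists (blue), for cKO against Flox on the left and H-ins2-O against H-ins2-C on the right. Each point is a gene, black bars are list medians and the dashed line is the median of all genes tested (-0.34 and 0.44). The chaperones have a median of -0.86 on the left and 0.28 on the right.

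In the virus groups on high-fat diet, none of the 10 chaperones passed the test between H-ins2-O and H-ins2-C. With SEs of 0.45 to 0.73 on the log2 scale, this does not show that the levels were equal. In limma 0 of the 10 passed at an adjusted p under 0.05 and 0 at an unadjusted p under 0.05, against 0.033% and 6.41% of the 12132 genes tested. Of the 8 libraries, the highest was a control for 8 of the 10 chaperones (not for Hspa8 and Hsp90aa1) and the lowest was a control for 9 (not for Hspa1a). The groups were separate for 0 of the 10, against 5.61% of all genes higher and 0.964% lower in H-ins2-O.

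Hspa8 measured 541, 224, 177 and 597 FPKM in H-ins2-C1, C2, C3 and C5, and 502, 611, 551 and 524 FPKM in H-ins2-O1 to O4. The H-ins2-O libraries lay within 1.22-fold of each other and the H-ins2-C libraries spread 3.37-fold, with C2 and C3 low. The log2 fold change was 0.70 (SE 0.45, limma adjusted p = 0.591).

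Hspa1a measured 183, 33.3, 28.4 and 340 FPKM in H-ins2-C1, C2, C3 and C5, and 24.5, 81.2, 76.6 and 123 FPKM in H-ins2-O1 to O4. Hspa1b measured 227, 42.4, 37.1 and 402 FPKM in the control libraries, and 37.9, 107, 101 and 168 FPKM in H-ins2-O1 to O4. H-ins2-C1 and C5 were above all H-ins2-O libraries for both genes, and H-ins2-O1 was the low library of its group. The log2 fold changes were -0.41 (SE 0.73, limma adjusted p = 0.756) and -0.27 (SE 0.69, limma adjusted p = 0.830).

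Hspb1 spread widely among the controls. It measured 195, 26.2, 31.9 and 457 FPKM in H-ins2-C1, C2, C3 and C5, a 17.4-fold range (7.71-fold after median-of-ratios scaling), and 46.8, 71.0, 67.6 and 77.0 FPKM in H-ins2-O1 to O4. Its log2 fold change was -0.53 (SE 0.73, limma adjusted p = 0.703). Dnajb1 was likewise highest in H-ins2-C5 and C1, with 27.4, 8.42, 6.82 and 50.8 FPKM in the control libraries and 8.39, 17.4, 15.4 and 20.2 FPKM in H-ins2-O1 to O4.

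Hsph1 measured 21.9, 7.15, 5.02 and 23.998 FPKM in H-ins2-C1, C2, C3 and C5, and 12.9, 17.1, 15.5 and 14.1 FPKM in H-ins2-O1 to O4. Dnaja1 measured 46.2, 14.0, 11.5 and 39.2 FPKM in the control libraries, and 26.4, 30.8, 27.2 and 27.5 FPKM in H-ins2-O1 to O4. For both genes H-ins2-C1 and C5 lay above and C2 and C3 below all H-ins2-O libraries, so the group means were nearly equal (14.5 ± 9.81 and 14.9 ± 1.82 FPKM for Hsph1; 27.7 ± 17.5 and 27.97 ± 1.91 FPKM for Dnaja1; SD, n = 4).

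Hsp90aa1 measured 122, 45.4, 28.4 and 98.3 FPKM in H-ins2-C1, C2, C3 and C5, and 109, 136, 115 and 94.8 FPKM in H-ins2-O1 to O4. Its log2 fold change of 0.84 (SE 0.48, limma adjusted p = 0.591) was the largest of the set in this comparison. The mitochondrial Hspd1 measured 45.7, 18.9, 12.6 and 38.6 FPKM in the control libraries, and 38.8, 44.0, 41.0 and 33.8 FPKM in H-ins2-O1 to O4. Hspe1 measured 60.1, 33.3, 24.8 and 79.1 FPKM in the control libraries, and 55.3, 63.6, 54.9 and 50.9 FPKM in H-ins2-O1 to O4.

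Several of these values moved when H-ins2-C2 and H-ins2-C3, the libraries with 59.6% and 77.8% acinar RNA, were left out. Without them, an alternative chosen after seeing the data, all 4 H-ins2-O libraries lay below both remaining controls for 6 of the 10 chaperones (Hsph1, Hspa1a, Hspa1b, Dnajb1, Dnaja1 and Hspb1), against 41.4% of all genes. Hspb1 then had a log2 fold change of -2.20 (limma adjusted p = 0.00708), Hspa1a -1.91 (limma adjusted p = 0.0482), Hspa1b -1.72 (limma adjusted p = 0.0503), Dnajb1 -1.32 (limma adjusted p = 0.0350), Hsph1 -0.61 (limma adjusted p = 0.0147) and Dnaja1 -0.60 (limma adjusted p = 0.0101), while Hspa8 was at -0.06 (limma adjusted p = 0.772) and Hsp90aa1 at 0.05 (limma adjusted p = 0.858). Hsph1, Hspa8, Dnaja1, Hspd1 and Hspe1 changed sign in this way, and the other 5 kept theirs. The median of all genes in that fit was -0.21, 24.3% of all genes passed at an adjusted p under 0.05, and the control arm held only 2 libraries. Of the 10 chaperones, Hspb1 also passed with the acinar share as a covariate, at -1.69 (limma adjusted p = 0.0318), in a fit in which 4.47% of all genes passed.

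**Figure D4:**
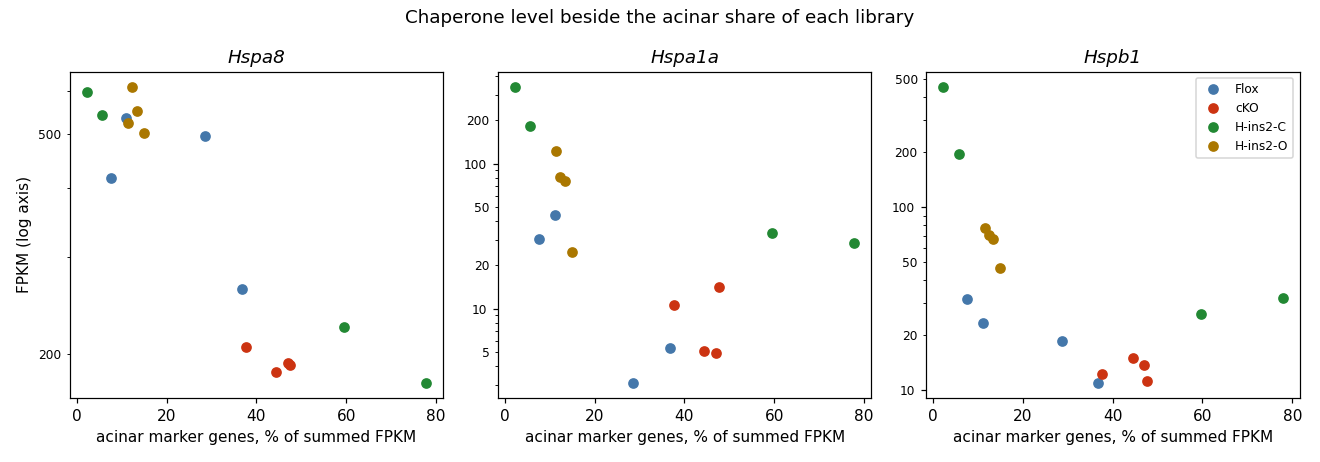
FPKM on a log axis of Hspa8, Hspa1a and Hspb1 beside the share of summed FPKM held by acinar marker genes, 1 point per library, coloured by group. The cKO libraries (37.6 to 47.6%) lie to the right of the Flox libraries (7.69 to 36.8%), and H-ins2-C splits into C1 and C5 at 5.71 and 2.25% and C2 and C3 at 59.6 and 77.8%, with the H-ins2-O libraries between them.

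In the pathway outside the set, 0 of 74 genes passed in limma at an adjusted p under 0.05, 5 had an unadjusted p under 0.05, and the median log2 fold change of 0.56 was near the 0.44 of all genes. Hsp90ab1 was at 0.997 (limma adjusted p = 0.591) and Hsf1 at 0.65 (limma adjusted p = 0.598). Cryab was at -1.40 (limma adjusted p = 0.591), with all H-ins2-O below all H-ins2-C libraries. The ER chaperones had a median of 0.74, with 0 of 16 passing and 1 at an unadjusted p under 0.05.

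Levels in the virus and chow libraries are set side by side without a test, since they come from separate tables and the groups differ in diet and virus. Hspb1 averaged 178 FPKM in H-ins2-C against 21.1 FPKM in Flox, an 8.40-fold ratio of means, Hspa1a 146 against 20.7 FPKM (7.06-fold) and Hspa1b 177 against 26.8 FPKM (6.60-fold). H-ins2-C5 carried much of this, and without it the ratios were 4.001, 3.93 and 3.80. The libraries overlapped, since for Hspa1a and Hspa1b flox20 exceeded H-ins2-C2, C3 and O1, and flox21 exceeded H-ins2-C3 and O1. For Hspb1, flox21 exceeded H-ins2-C2. Dnajb1 had a ratio of 1.88, or 1.14 without H-ins2-C5. In H-ins2-O the ratios to Flox were 3.11 for Hspb1, 3.68 for Hspa1a, 3.86 for Hspa1b, 1.28 for Hspa8 and 1.23 for Dnajb1. They were 0.560 for Hsph1, 0.627 for Dnaja1, 0.645 for Hspd1, 0.708 for Hsp90aa1 and 0.787 for Hspe1. Hspa8, Hsph1, Dnaja1, Hsp90aa1, Hspd1 and Hspe1 had ratios of 0.457 to 0.8997 in H-ins2-C. Over all 16 libraries Hspa1a ranged 111-fold, Hspa1b 105-fold and Hspb1 41.6-fold, Dnajb1 11.3-fold, and the other 6 between 3.45-fold and 7.26-fold. After median-of-ratios scaling within each table these ranges were 82.7-fold, 78.3-fold, 25.5-fold and 6.90-fold, and 1.97-fold to 3.23-fold for the other 6. The ratio of Hspa1a plus Hspa1b to Hspa8, which needs no scaling between tables, was 0.0139 to 0.186 in the chow libraries and 0.124 to 1.24 in the virus libraries. The ratio of Hspa1a to Hspa1b stayed within 0.587 to 0.845 throughout.

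Within groups, after median-of-ratios scaling and subtraction of each group mean, the set fell into 2 blocks that were named after their values were seen. Over the 16 libraries, the 6 pairs among Hspa1a, Hspa1b, Dnajb1 and Hspb1 had Pearson correlations of 0.55 to 0.99, the 15 pairs among the other 6 had 0.53 to 0.85, and the 24 pairs across the blocks had -0.12 to 0.56 with a median of 0.18. The blocks depend on the scaling: on unscaled values the pairs across them had correlations of 0.60 to 0.90, which overlap the 0.76 to 0.996 within the first block. flox20 and flox21, H-ins2-C5 and H-ins2-O4 were high, and flox16, flox17, H-ins2-C2 and H-ins2-O1 were low, for Hspa1a and Hspa1b in their groups. These correlations describe libraries that share depth, scaling and tissue mixture, and are given without a test.

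**Figure D5:**
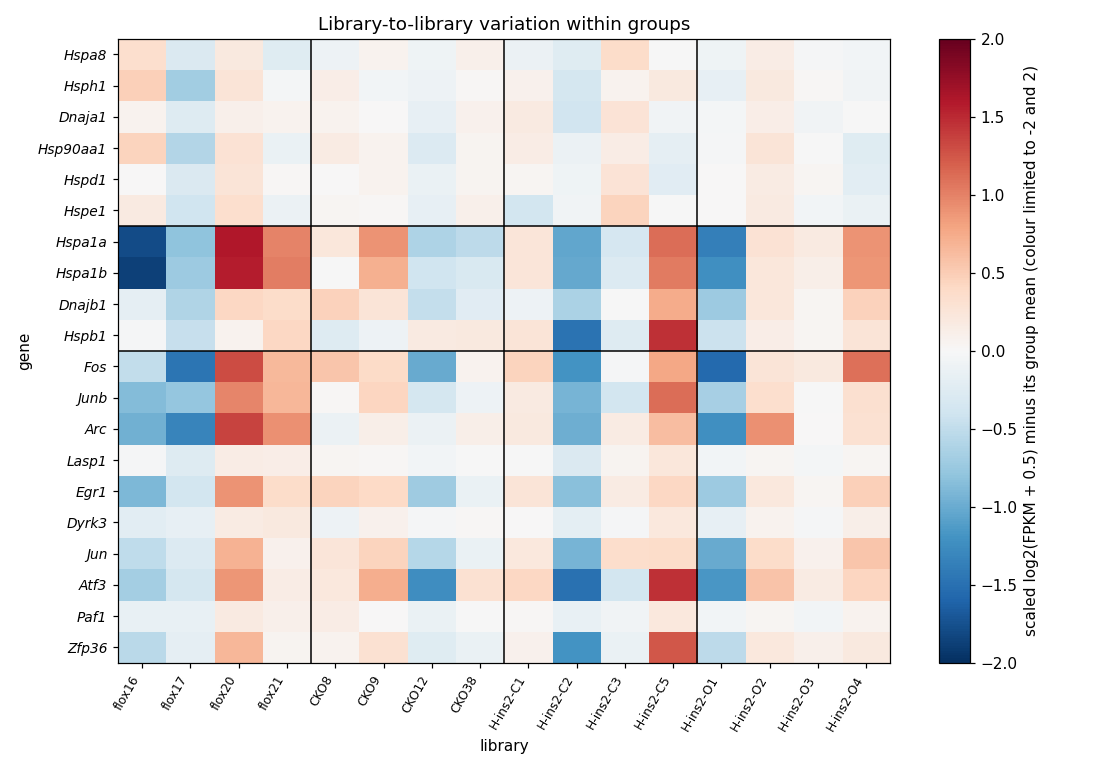
Scaled log2(FPKM + 0.5) of each gene minus its group mean in the 16 libraries, for the 10 heat shock chaperones (upper 2 blocks) and the 10 genes whose pattern was most like their mean (lower block). Red is above and blue below the group mean, with colours limited to -2 and 2. Hspa1a and Hspa1b vary most, and Fos, Junb, Egr1 and Atf3 are high and low in nearly the same libraries.

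The genes whose library-to-library pattern was most like the mean of the 10 chaperones, among 10378 genes, were Fos (Pearson correlation 0.94), Junb (0.94), Arc (0.93), Lasp1 (0.91), Egr1 (0.90), Dyrk3 (0.89), Jun (0.89), Atf3 (0.87), Paf1 (0.86) and Zfp36 (0.86), each over 16 libraries. Of these 10, 6 (Fos, Junb, Egr1, Jun, Atf3 and Zfp36) were on the list of immediate early genes, which holds 17 of the genes ranked. Fos, for instance, measured 28.5, 11.8, 120 and 79.7 FPKM in flox16, flox17, flox20 and flox21, the same split that Hspa1a showed. The Spearman correlations of the 10 were 0.82 to 0.95, the Pearson correlations were 0.77 to 0.97 over the 8 chow libraries and 0.85 to 0.96 over the 8 virus libraries, and they were 0.83 to 0.96 without H-ins2-C2 and H-ins2-C3. With the mean of Hspa8, Hsph1, Dnaja1, Hsp90aa1, Hspd1 and Hspe1 the same genes had Pearson correlations of only 0.20 to 0.59. The list depends on the scaling. On unscaled values the 10 genes most like the mean were Ndufa11, Junb, Il1b, Nme1, Dyrk3, Ranbp1, Smarce1, Psmd13, Exosc9 and Lmna. Only Junb and Dyrk3 were in both lists, and Fos, Egr1, Jun, Atf3 and Zfp36 were not in the unscaled one. For the mean of Hspa1a, Hspa1b, Dnajb1 and Hspb1 alone, the 10 most alike included Junb, Egr1 and Zfp36 on both scales. Their correlations were 0.98, 0.91 and 0.90 on scaled and 0.99, 0.97 and 0.96 on unscaled values. Fos was in that scaled list only, Jun in the unscaled list only and Atf3 in neither. The mean of the 10 chaperones is weighted towards Hspa1a and Hspa1b, whose standard deviations within groups were 0.97 and 0.93 on the log2 scale, against 0.16 to 0.59 for the others.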

How the data were processed

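Total islet RNA was sequenced on the Illumina NovaSeq platform. The authors deposited FPKM values per gene in 2 tables, of 17361 genes (Flox and cKO) and 17318 genes (H-ins2-C and H-ins2-O). Their processing notes name mm10, and the aligner, counter and annotation are not given in the sources used here. Read totals are unknown, so no counting interval is given. All 4 libraries per group entered the fits, of which the study's figures show 3.

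FPKM were tested as log2(FPKM + 0.5) in limma 3.58.1 (R 4.3.3) with trend and robust empirical Bayes, on genes averaging 0.5 FPKM or more in a table, and p was two-sided and adjusted over all genes tested. Fold changes on this scale understate those of low genes. Nothing says whether libraries come from separate animals, so p-values measure the spread between libraries. Median-of-ratios factors were computed within each table. Marker shares are summed FPKM of a list over all FPKM of a library.

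The members and gene lists were chosen with earlier results of these data known. Named genes are all members, up to 3 per list with the largest change among those passing (2 where none passed), Hsf1, Hsp90ab1, Hspa5, Cirbp and Rbm3, and the 10 genes most like the members' mean among those with at least 1 FPKM in both tables. Hsp90b1, Pdia3 and Canx follow from a count of 4 and Fos was picked as the example after its values were seen. Alternatives were other pseudocounts (1 and 0.1), filters, scalings, covariates and left-out libraries. Promoter letters were searched in RefSeq windows with Python 3.11.15.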

Additional observations from a re-analysis of the deposited data

Results flagged for a closer look

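Hsph1 in cKO was the only result flagged among the 40 combinations of 10 chaperones and 4 groups that were examined for a single library standing apart. CKO8, at 10.97 FPKM, lay above the other 3 cKO libraries, which measured 7.91 to 8.31 FPKM, and the gap of CKO8 to its neighbour made up 0.869 of the range of the group, over Dixon's 95% critical value for 4 samples. Chance flags about 5% of groups at this level. CKO8 is also the cKO library with the least acinar RNA (37.6%), and the part of that in the result was not tested.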

How the results depend on the processing

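In cKO against Flox, 155 genes passed the adjusted p and fold minimum; the count was 84 with a pseudocount of 1, 307 with 0.1, 0 with every gene above 0 tested, 36 after median-of-ratios scaling, 272 without trend and robust fitting, 0 with the acinar share as covariate, 699 with the 3 libraries per group of the study's figures, 1631 without a fold minimum, and 18 to 507 when single libraries were left out (507 without flox17, 491 without flox16, 47 without flox20, 44 without flox21, 18 without CKO9, 60 without CKO38). Of the pathway, 4 genes passed, against 0 with every gene tested, 1 after scaling, 0 with the covariate, 14 with 3 libraries, 30 without a fold minimum and 1 to 12 with single libraries left out (12 without flox17, 1 without CKO9). The median of the 10 chaperones was -0.15 with the covariate and -1.10 to -0.71 with single libraries left out, Hspa1b ran from -1.15 to 0.08 with single libraries left out, and Hspa12a came to 0.000148 with the covariate. With a replicate block 268 genes passed in cKO against Flox and 4 in H-ins2-O against H-ins2-C, but equal numbers did not pair the samples (correlations of -0.21 to 0.12 and -0.13 to 0.10).

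In H-ins2-O against H-ins2-C, 4 genes passed, against 10 with every gene tested, 259 with the covariate, 649 without H-ins2-C2 and H-ins2-C3, and 4 to 5 with single libraries left out; of the pathway 0 passed, against 1 with the covariate and 1 without those libraries. The median of the chaperones, 0.28, was -0.25 after scaling, -0.35 with the covariate and -0.07 to 0.55 with single libraries left out. Without H-ins2-C2 and H-ins2-C3 it was -0.60, and Hsph1 (-0.61), Hspa8 (-0.059), Dnaja1 (-0.60), Hspd1 (-0.10) and Hspe1 (-0.30) changed sign. After scaling Hsph1 (-0.21), Dnaja1 (-0.28) and Hspe1 (-0.22) did so, and with the covariate Hsph1 (-0.35), Dnaja1 (-0.35) and Hspe1 (-0.13). With single libraries left out, the range was -0.073 to 0.64 for Hsph1 and -0.075 to 0.58 for Dnaja1 (below 0 without H-ins2-C3), -0.95 to 0.24 for Hspa1a, -0.78 to 0.36 for Hspa1b and -0.63 to 0.31 for Dnajb1 (above 0 without H-ins2-C5 or H-ins2-O1, and for Hspa1b and Dnajb1 also without H-ins2-C1), and -1.13 to 0.23 for Hspb1 (above 0 without H-ins2-C5). The cause of these changes was not tested. Over the named genes, 577 of 802 alternative values counted as unchanged, 185 lost the threshold, 4 gained it, 13 moved by more than the spread and 23 reversed. Unchanged meant the same direction and side of the threshold where a test was made. For the chaperones in cKO against Flox and the ratios to Flox it meant a move smaller than the spread between libraries. Direction was not checked there, so the 23 leave out sign changes such as that of Hspa1b (-0.50, and 0.08 without flox20). FPKM without read totals give no counting limit for low genes.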
